A study of Homo sapiens with 4 samples.

Results

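miR-483 and miR-675 are the microRNAs of IGF2 and H19, a neighbouring pair of imprinted genes on human chromosome 11. The array carried 4 entries for them, the 3p and the 5p arm of each hairpin, out of 1308 miRNA entries in all. They were taken by name, every entry called miR-483 or miR-675 with any arm. The pair of loci was chosen by the log2 fold changes of these same arrays, camptothecin over untreated, in which miR-483-3p is among the highest. That change is therefore given as a description, with no test of its own.

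Small RNA came from exosomes, the small vesicles that cells shed into their medium, released by Hep3B, a human hepatocellular carcinoma line that lacks the tumour suppressor p53. In the camptothecin group (2 arrays) the cells spent 2 days with 10 µM camptothecin, a topoisomerase I poison that causes DNA strand breaks, in a medium depleted of outside exosomes. The untreated group (2 arrays) spent that time in such medium with no treatment, as labelled, although the authors' ratio columns name the comparator DMSO. Every array was hybridised with Cy5 alone, and its values are intensities in arbitrary units. Whether the replicates are separate cultures is not stated, so p-values measure only the spread between these arrays, which may be technical. Both arrays of a group hold the same set of sorted values, so part of that spread was removed before deposit.

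A microRNA hairpin is cut into a 5p and a 3p strand, of which usually one is kept in the silencing complex, where bases 2 to 8 (the seed) choose its target messenger RNAs. IGF2, a fetal growth factor read from the paternal chromosome, holds miR-483 in an intron. H19, a long noncoding RNA read from the maternal chromosome under the same enhancers, holds miR-675 in its first exon. Both genes are highly active in fetal liver, and their control is often disturbed in liver cancer. miR-483-3p is known to act on BBC3, which encodes the pro-apoptotic protein PUMA. miR-675 is known to act on RB1 in human colorectal cancer cells and on Igf1r in mouse placenta.

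Both miR-675 arms are shown because their base composition differs sharply and is set beside their change further on. In the gene table of RefSeq MIR675 lies inside H19 and MIR483 inside IGF2, both on chromosome 11. In the hairpin the arms are in capitals, and in the arms the seed is in capitals. The sequences, written 5′ to 3′, are those of RefSeq on GRCh38.p14, where the hairpin lies on the minus strand at chr11:1996759-1996831. Of the 4 entries, 2 matched a sequence in the table used.
mir-675 hairpin: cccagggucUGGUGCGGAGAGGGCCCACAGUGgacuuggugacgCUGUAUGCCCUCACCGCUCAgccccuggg
miR-675-5p: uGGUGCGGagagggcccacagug
miR-675-3p: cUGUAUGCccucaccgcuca

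Of the 4 entries, miR-483-3p was the one that read clearly higher after camptothecin. Its intensity was 673 and 819 on the camptothecin arrays, against 426 and 446 on the untreated arrays. Both camptothecin arrays lay above both untreated ones, and they differed more from each other than the untreated pair did. The group means were 746 ± 103 after camptothecin and 436 ± 13.6 without (SD, n = 2 each), a 1.70-fold difference (log2 fold change 0.77 ± 0.099 SE). In the authors' deposited table the 4 log2 ratios of a camptothecin over a control array ran from 0.59 to 0.94. By log2 fold change miR-483-3p stood in place 5 of the 1308 entries.

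The spread between the camptothecin arrays was wide for this entry. They differed by 0.28 on the log2 scale, a gap wider than that of 98.3% of entries, where the median gap was 0.065. The untreated arrays differed by 0.064, with a median gap of 0.05 over all entries. Ranking the entries within each array from the brightest down, which no scaling of an array can change, miR-483-3p took places 88 and 71 after camptothecin and places 175 and 167 without.

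The other strand of the same hairpin, miR-483-5p, did not share this difference. It read 1157 and 1190 on the camptothecin arrays, against 1240 and 1202 on the untreated arrays. The camptothecin arrays were lower by a small margin, with a log2 fold change of -0.06 ± 0.044 SE. Its places were 43 and 41 after camptothecin and 42 and 45 without, so by rank the groups overlapped. It was the brightest of the 4 entries on every array, at the 97.1 percentile of level, against the 91.3 percentile for miR-483-3p. Levels of different probes also reflect how well each probe binds and how well each RNA is labelled, so these percentiles do not rank amounts of RNA.

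miR-675-3p, from the H19 hairpin, read 379 and 373 after camptothecin, against 420 and 403 without. Both camptothecin arrays were lower (log2 fold change -0.13 ± 0.05 SE). By place, however, the groups overlapped, at 185 and 191 after camptothecin and 178 and 189 without. Its level lay at the 85.9 percentile.

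miR-675-5p was the dimmest of the 4, at the 51 percentile of level. It read 161 and 160 after camptothecin, against 171 and 168 without (log2 fold change -0.08 ± 0.04 SE). Here the small difference in intensity went with a large one in place, 734 and 753 after camptothecin and 578 and 593 without. Without detection marks in the files, the distance of this entry from background is not known.

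**Figure D1:**
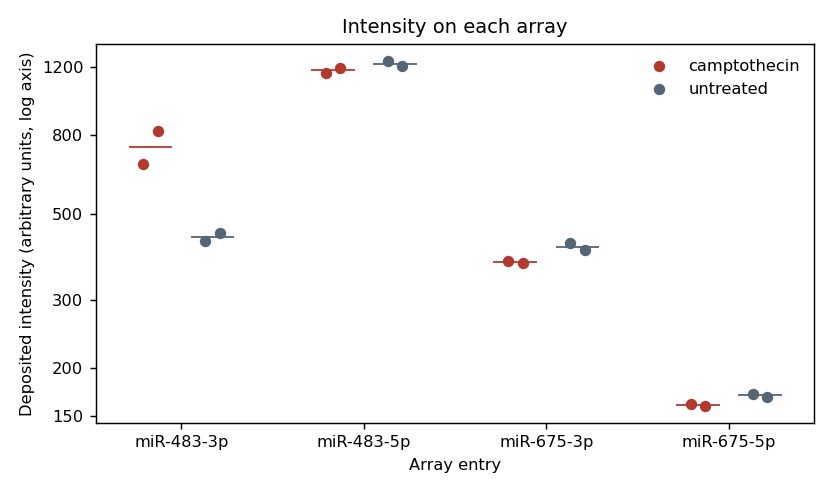
Deposited intensity (arbitrary units, log axis) of the 4 entries on each array. Points are arrays and lines are group means of 2 arrays, camptothecin left and untreated right. miR-483-3p reads 673 and 819 against 426 and 446, while the other entries differ little between groups.

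All 4 entries had groups that did not overlap in intensity, 1 higher and 3 lower after camptothecin, which was so for 78.7% of all entries (59.4% higher, 19.3% lower). In the fit of all entries with limma (Benjamini-Hochberg adjusted p under 0.05), 1 of the 4 was called, miR-483-3p as higher, where 46.3% of all entries were called, 35.1% as higher and 11.2% as lower. Nothing is read from these counts, since the entries were chosen with this contrast known. The call was lost when camptothecin replicate 2, untreated replicate 1 or untreated replicate 2 was left out, which leaves 1 array in that group. The log2 fold change of miR-483-3p was then 0.63, 0.74 and 0.80. Over all entries 606 passed, 459 higher and 147 lower. Leaving out camptothecin replicate 1 gave 71 calls, leaving out camptothecin replicate 2 gave 44, and leaving out either of the untreated arrays gave 1.

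The values as deposited carry a shift that touches the 3 small differences. The median log2 fold change was 0.11 over all entries, and in the 327 brightest entries, which hold 3 of the 4, it was -0.12. Among those 327, miR-483-3p was in place 5 by log2 fold change, miR-483-5p in place 139 and miR-675-3p in place 173. In the next 327, where the median was 0.06, miR-675-5p was in place 286.

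**Figure D2:**
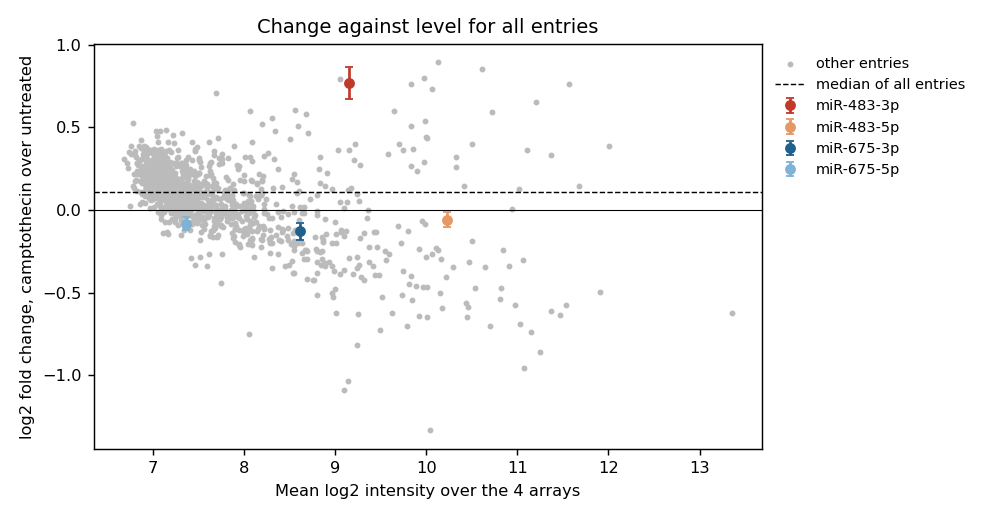
Log2 fold change, camptothecin over untreated, against the mean log2 intensity over the 4 arrays for 1308 entries, with the 4 entries in colour and bars of ± 1 SE. miR-483-3p, at 0.77, lies near the top, the other 3 lie between -0.13 and -0.06, and the dashed line is the median of all entries, 0.11.

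How firm each value is was seen from other scalings of the same arrays. With all 4 arrays quantile normalized together, which gives every array the same set of values, miR-483-3p was at 0.89 on the log2 scale, and after normexp background correction at 0.95. It stood in place 6 of 1308 both times. The sign of miR-483-5p was not stable, at 0.03 with joint quantile normalization and 0.07 after normexp correction. miR-675-5p was at -0.19 and -0.25 in these settings, where 9.02% and 8.79% of entries were lower still. miR-675-3p was at -0.03 and -0.09. The calls among the 4 entries moved with the setting, and nothing is read from them. Joint quantile normalization gave 1 higher and 1 lower (miR-675-5p), where 6.88% of all entries were higher and 6.04% lower. Median centring gave 1 higher and 3 lower, where 9.02% and 16.2% of all entries were called. A fit of the brightest 327 entries alone, which hold 3 of the 4, gave 1 higher and 1 lower (miR-675-3p), where 18.7% and 39.4% of those entries were called. The scalings also changed the make-up of the calls over all entries, of which 75.7% were higher as deposited, 53.3% with joint quantile normalization (90 higher, 79 lower), 55.5% after normexp correction (106 and 85), 35.8% with median centring of the arrays (118 and 212) and 91.5% when the 75th percentile was taken over the brighter 654 entries (892 and 83).

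**Figure D3:**
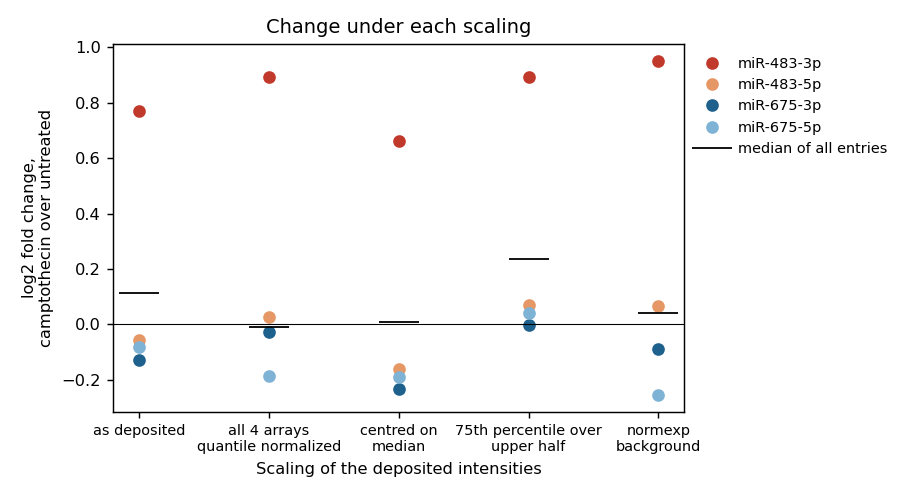
Log2 fold change, camptothecin over untreated, of the 4 entries under 5 scalings of the deposited intensities, with the median of all entries as a black line. miR-483-3p stays between 0.66 and 0.95, while the other 3 stay between -0.25 and 0.07 and 2 of them change sign.

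Setting the arms of a hairpin against each other within an array removes any factor common to that array, but not a shift that changes with level. For miR-483 the log2 ratio of the 3p over the 5p intensity was -0.78 and -0.54 on the camptothecin arrays, against -1.54 and -1.43 on the untreated arrays. The 3p arm thus read below the 5p arm on every array, by a smaller margin after camptothecin, and the groups did not overlap. The difference in log2 fold change, 3p minus 5p, was 0.83.

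For miR-675 the order was the opposite, with the 3p probe brighter than the 5p probe on every array. Its log2 ratio was 1.23 and 1.22 on the camptothecin arrays, against 1.29 and 1.26 on the untreated arrays. The difference in log2 fold change, 3p minus 5p, was -0.05, and it turned to 0.16 with joint quantile normalization and 0.17 after normexp correction. That of miR-483 kept its sign in these settings. The mean log2 fold change of both miR-483 arms was 0.46 above that of both miR-675 arms, a gap carried by miR-483-3p.

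Among 231 hairpins with both arms on the array, the 3p minus 5p difference in log2 fold change had a median of 0.08, and its middle 50% ran from -0.11 to 0.27. miR-483 took place 9 from the top and miR-675 place 154. Of these hairpins 84 had both arms at or above the median level, where the median difference was 0.26. miR-4728 (1.33), miR-197 (1.01) and miR-877 (1.00) had the highest differences of the 84, and miR-1285 (-0.63), miR-5585 (-0.57) and miR-1909 (-0.56) the lowest. In these 84, miR-483 was in place 9 and miR-675 in place 65.

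**Figure D4:**
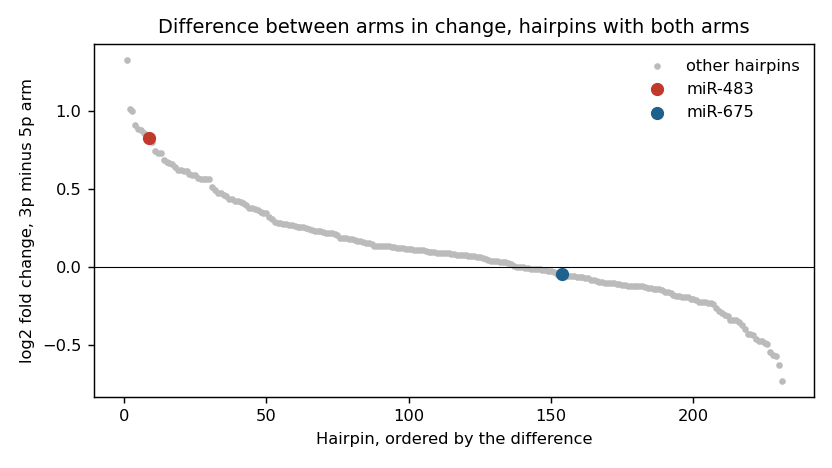
Difference between arms in log2 fold change (camptothecin over untreated), 3p minus 5p, for 231 hairpins in descending order. miR-483 lies at 0.83 in place 9 and miR-675 at -0.05 in place 154.

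The entries most like each arm were sought by the Euclidean distance in log2 intensity over the 4 arrays, which joins level and change. For miR-483-3p the nearest was miR-4290, at a distance of 0.22. miR-4290 read 668 and 737 on the camptothecin arrays, against 403 and 407 on the untreated arrays (log2 fold change 0.79 ± 0.064 SE). Next came miR-3162-3p at 0.45, with 675 and 690 after camptothecin and 539 and 498 without. miR-2116-3p, at a distance of 0.46, read 644 and 648 after camptothecin and 511 and 495 without. miR-4290 was thus much closer than any other entry, and 2 of these 3 are themselves 3p arms.

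The nearest to miR-483-5p was miR-4298, at a distance of 0.27. miR-4298 also lies on chromosome 11 and read 1039 and 1033 after camptothecin, against 1273 on both untreated arrays. miR-6127 followed at 0.30 (1060 and 985 after camptothecin, 1220 and 1174 without), then the joint entry for miR-1268a and miR-1268b at 0.31 (1092 and 971 after camptothecin, 1211 and 1220 without). In all 3 the camptothecin arrays were lower by more than for miR-483-5p, with log2 fold changes from -0.30 to -0.23.

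The sequences of these neighbours are printed because they fall into opposite base compositions. The neighbours of miR-483-3p were rich in C and poor in G, with 1 G in 19 bases in miR-4290, 0 in 21 in miR-3162-3p and 2 in 21 in miR-2116-3p. Those of miR-483-5p with a matched sequence were rich in G, with 12 in 22 bases in miR-4298 and 13 in 19 in miR-6127. No sequence was matched to the joint entry for miR-1268a and miR-1268b. Seeds are in capitals.
miR-4290: uGCCCUCCuuucuucccuc
miR-3162-3p: uCCCUACCccuccacucccca
miR-2116-3p: cCUCCCAUgccaagaacuccc
miR-4298: cUGGGACAggaggaggaggcag
miR-6127: uGAGGGAGugggugggagg

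For miR-675-5p the nearest entries were miR-3180 (distance 0.074), miR-3175 (0.08) and miR-4717-5p (0.10), with log2 fold changes from -0.09 to -0.01. For miR-675-3p they were miR-1224-5p (0.091), miR-1236-5p (0.11) and miR-4667-5p (0.12), with log2 fold changes from -0.20 to -0.02. The 3 neighbours of miR-675-3p were G-rich 5p arms, with a share of G from 40.9% to 57.9%, while miR-675-3p itself had 15% G. Distances were smaller here than for the miR-483 arms.

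Base composition ran with the change over the whole array. Across the 1105 entries with a RefSeq sequence, Spearman's rho between the share of G and the log2 fold change was -0.49 as deposited and -0.41 with joint quantile normalization. In the same order rho was 0.39 and 0.23 for the share of U, 0.19 and 0.16 for C, and 0.08 and 0.10 for A. These entries share 4 arrays and are not independent, and the shares of G and U also ran with level (rho 0.24 and -0.39). miR-675-5p has 11 G in 23 bases, a share of 47.8%. The 145 entries with at least that share had a median log2 fold change of -0.18, and 91 of them lay below miR-675-5p. With joint quantile normalization their median was -0.12 and 49 of them lay below it, so its place among them depended on the scaling. miR-675-3p has 3 G in 20 bases, and the 177 entries with at most its share had a median of 0.21. Of those 177, 6 lay below miR-675-3p as deposited, and 38 with joint quantile normalization. The part of base composition in these values was not tested.

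The same was seen between arms. In 196 hairpins with both sequences, the 3p minus 5p difference in the share of G ran against that in log2 fold change (rho -0.57 across hairpins, -0.62 with joint quantile normalization). The 3p arm of miR-675 has 32.8 percentage points less G than its 5p arm, and 31 hairpins, itself included, had a gap at least as wide in that direction. Their median difference in log2 fold change was 0.51, and 29 of the 31 were above 0. miR-675, at -0.05, was lower than all of them but miR-664b, at -0.14. With joint quantile normalization miR-675 was at 0.16, below 23 of the 31, whose median was 0.55. miR-483 had no sequence in the table used and is not among the 196.

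By seed, miR-675-3p shared bases 2 to 8 with no other human miRNA of the table. miR-675-5p shared its seed with miR-4466, a miRNA of another locus on chromosome 6, printed here to show the shared seed in capitals.
miR-4466: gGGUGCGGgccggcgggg
miR-4466 read 170 and 162 on the camptothecin arrays, against 203 and 202 on the untreated arrays. Both camptothecin arrays were lower, with a log2 fold change of -0.28 ± 0.045 SE, beside -0.08 for miR-675-5p. It has 13 G in 18 bases.

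Other miRNAs of imprinted loci were looked at for comparison, from lists that may not hold every miRNA of a locus. Of 43 entries of the MEST, GNAS and DLK1-DIO3 loci and of the chromosome 19 cluster, 19 passed as higher and 0 as lower (limma, Benjamini-Hochberg adjusted p under 0.05), where 35.1% of all entries passed as higher and 11.2% as lower. Their median log2 fold change was 0.14, beside 0.11 over all entries. With joint quantile normalization 0 passed in either direction (limma) and the median was -0.01, where 6.88% of all entries passed as higher and 6.04% as lower. In that setting 2 of the 43 had an unadjusted p under 0.05 (limma), as did 359 of all 1308 entries in either direction. By locus, 15 of 28 entries of DLK1-DIO3, the imprinted cluster on chromosome 14, passed as higher, among them miR-382-3p (0.45) and miR-379-3p (0.32). In the chromosome 19 cluster, active mainly in placenta, 3 of 11 passed as higher, led by miR-516b-5p (0.22). That entry lay at the 0.76 percentile of level and was at -0.02 with joint quantile normalization. Of 4 entries of MEST and GNAS, miR-335-3p from MEST passed (0.16). These counts stand beside the 35.1% of all entries that passed as higher. That share was 18.7% in the 327 brightest entries and 21.1% in the next 327, so it was larger among dimmer entries. Levels at these loci were mostly low, with a median at the 37.5 percentile for DLK1-DIO3, below those of miR-483 and miR-675. The 35.1% is thus not matched to their level.

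Of 6 other entries of chromosome band 11p15, 3 passed as higher and 1 as lower, with a median of 0.12, where 35.1% and 11.2% of all entries did and their median was 0.11. miR-4687-5p (0.26), miR-5691 (0.24) and miR-210 (0.16), the miRNA induced by low oxygen, were higher. miR-4298 (-0.30) was lower. With joint quantile normalization miR-4687-5p (0.40) and miR-4298 (-0.19) still passed, where 6.88% of all entries passed as higher and 6.04% as lower.

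The growth factor that IGF2 encodes acts through the IGF1 receptor, and of 13 entries, of any arm, of miRNAs known to act on that receptor or on insulin receptor substrates, 6 passed as higher and 0 as lower, where 35.1% and 11.2% of all entries did. Their median was 0.11, beside 0.11 over all entries. The 4 largest were miR-122-5p (0.39), miR-99a-3p (0.24), miR-1 (0.33) and miR-145-5p (0.36). With joint quantile normalization 2 passed as higher, miR-145-5p (0.22) and miR-1 (0.34), where 6.88% of all entries did.

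Markers of cell types were read for the label. All 3 liver entries were dim, from the 3.82 percentile (miR-122-5p, the main miRNA of hepatocytes) to the 36.3 percentile, and their summed intensity was 454 to 457 after camptothecin and 360 to 386 without. The lowest intensity of any entry was 109 on camptothecin arrays and 91.4 on untreated arrays. The dim end of the scale thus differed in the same direction, and its part in these sums was not tested. All 3 liver entries passed as higher, and 0 did with joint quantile normalization (limma). In that setting 1 of the 3 had an unadjusted p under 0.05 (limma), as did 359 of all 1308 entries in either direction. The 4 muscle entries summed to 1132 to 1150 after camptothecin and 880 to 914 without, and all 4 passed as higher, 2 of them with joint quantile normalization. The 3 blood entries summed to 598 to 665 after camptothecin and 580 to 582 without, with 1 passing. Of all entries 35.1% passed as higher as deposited, and 6.88% with joint quantile normalization. Of these markers 10 of 14 had an entry analysed here. Their part in the values of miR-483 and miR-675 was not tested.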

How the data were processed

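Exosomal small RNA of Hep3B was measured on 4 arrays, 2 with camptothecin and 2 without. Deposited intensities were linear and already normalized, with no step given in the sources used here. On both arrays of a group all 1308 sorted values were equal, and the 75th percentile was 250.15 on all 4, as normalization within each group would leave them. Separate arrays do not otherwise share every sorted value, so the arrays of a group were brought to a common set of values before deposit. This takes out part of the spread between replicates, and p-values may be too small. Intensities ran from 109 to 8435 on camptothecin arrays and from 91.4 to 12998 on untreated arrays. The authors' deposited log2 ratios equal differences of log2 intensity within 5e-10. Another 4 columns of per-sample values were not used. The number of arrays limits the precision.

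Log2 intensities were compared over all entries with limma 3.58.1 (lmFit, eBayes with intensity trend, two-sided) in R 4.3.3, with Benjamini-Hochberg adjustment and a threshold of 0.05, without a pseudocount. Errors of fold changes are limma's. Further steps used Python 3.11.15. The fit was run on simulated arrays with independent noise, checking only that 2-fold changes were recovered at their size. The noise took its size from the spread between these replicates, so this does not show that the calls are right.

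The members, lists and tests were chosen with earlier results of these data known. Named besides the members are the 3 entries nearest to each in log2 intensity, entries sharing bases 2 to 8, up to 4 called entries a list by size of change, and the 3 highest and 3 lowest hairpins by arm difference with both arms at or above the median level. miR-664b was named after its value was seen. Probe names are the array's, and 12 entries carry several names. No genome build is given for the array. Same-numbered arrays did not deviate together (correlation of deviations from group means -0.072), so the numbers were not taken as pairs. Alternatives were other scalings, normexp correction (offset 50), pseudocounts, filters, variance models, a 2-fold threshold, a replicate block and leaving out each array.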

Additional observations from a re-analysis of the deposited data

How the results depend on the processing

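All alternatives start from the deposited values, and none gives back any spread removed before deposit. The total of 606 calls became 169 with all 4 arrays quantile normalized together, 330 with median centring, 975 with the 75th percentile taken over the brighter 654 entries, 191 after normexp correction, 267 among the brighter 654 entries, 190 among the brightest 327 and 3 with a 2-fold change also required. For the last 3 the alternative itself tests fewer entries or asks for more. For the others the cause was not tested. It ran from 1 to 71 with an array left out, where fewer arrays carry the fit. The replicate block gave 550 calls.

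The log2 fold change of miR-483-3p kept its sign in each alternative and was 0.95 after normexp correction. Leaving out an array gave 0.63 to 0.91, where the sign could not turn, since both camptothecin arrays lay above both untreated ones. miR-483-5p was at 0.027 with joint quantile normalization, 0.068 with the other 75th percentile, 0.065 after normexp correction and -0.16 with median centring, and from -0.079 to -0.035 with an array left out. miR-675-5p was at 0.042 with the other 75th percentile, -0.19 with joint quantile normalization, -0.19 with median centring, -0.25 after normexp correction and -0.0598 with a pseudocount of 64, and from -0.096 to -0.07 with an array left out. miR-675-3p was at -0.029 with joint quantile normalization, -0.23 with median centring, -0.00398 with the other 75th percentile and -0.088 after normexp correction, and from -0.16 to -0.1 with an array left out. The cause of these moves was not tested.

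The arm difference of miR-483 ranged from 0.70 to 0.95 with an array left out and kept its sign in each alternative. With an array left out the sign could not turn, since the arm ratios of the groups did not overlap. The arm difference of miR-675 turned to 0.157 with joint quantile normalization and to 0.167 after normexp correction, and ran from -0.063 to -0.03 with an array left out. The difference between miR-483 and miR-675 was 0.57 with joint quantile normalization and 0.68 after normexp correction, and from 0.37 to 0.55 with an array left out. The cause was not tested. Signal over background is not recorded, which limits miR-675-5p most.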
